A study of Mus musculus with 24 samples.

Results

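The genes described here are Fos, Fosl2, Jun, Junb, Egr1, Atf3, Ier2, Ier3, Dusp1 and Zfp36, 10 immediate early and AP-1 genes among the 14557 genes counted in the epithelial fraction of mouse lung organoids. They were chosen by name, and each was followed by the listed transcript that had the highest mean count in the 12 epithelial libraries. Immediate early genes are switched on within minutes by growth factors, wounding or stress, without new protein synthesis. MAP kinases and the factors SRF, ELK and CREB act on their promoters, and the burst is short because the phosphatase Dusp1 turns the kinases off and the RNA-binding protein Zfp36 speeds the decay of AU-rich mRNAs. Fos and Jun family proteins pair through leucine zippers into AP-1, which drives genes of proliferation, matrix turnover and repair, and in airway epithelium the same genes are known to respond to injury. In tissue digests they are also known to be induced by the enzymes used to free the cells.

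The study is about the effect of nylon 6,6 microfibers on lung organoids. Each well held 200000 EpCAM+ primary lung cells from WT female C57BL6 mice together with 200000 fibroblasts of the mouse lung line CCL206, in Matrigel. Wells received 0 (control), 12000 or 30000 fibers, 12 by 31 micrometers in size. After 7 days every culture, controls included, was digested for 30 min with dispase and 5 min with trypsin at 37 °C before anti-EpCAM beads took out the epithelial fraction, so the protocol was shared by all groups. What the digestion did to these genes in each group was not tested. Each group had 4 libraries, from mouse 1 to mouse 4, and the labels give 4 independent isolations from 4 mice. All 12 libraries carry primary epithelium from a single strain and sex, grown with a single fibroblast line, and the age of the mice is not given.

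Transcript counts summed to 21222034 to 28232472 per library in controls, 20103389 to 31119155 with 12000 fibers and 6767842 to 9234052 with 30000 fibers. The counts of the 10 genes ran from 577 (Ier2) to 9688 (Jun) in control libraries, from 473 to 5693 with 12000 fibers and from 187 to 1687 with 30000 fibers, again with Ier2 lowest and Jun highest. Counts of the highest transcript of each gene summed to 7204371 to 9743738 per library in controls, 6878550 to 10583357 with 12000 fibers and 2799765 to 3723250 with 30000 fibers. Of these smaller totals, mitochondrially encoded transcripts took 6.44 ± 1.118% in controls, 6.08 ± 0.725% with 12000 fibers and 15.6 ± 0.885% with 30000 fibers (SD, n = 4 each). The libraries of the highest dose thus stood apart in depth and in this share. Epithelial markers were present, with all 12 epithelial identity genes tested, and fibroblast identity genes were present beside them in every group. The 12 genes summed to 7162 to 8258 CPM in controls, 7285 to 8180 CPM with 12000 fibers and 4112 to 4845 CPM with 30000 fibers (CPM, counts per 1e+06 counts after TMM scaling). The 13 fibroblast identity genes with values summed to 8225 to 12937 CPM in controls, 15018 to 16503 CPM with 12000 fibers and 14162 to 17263 CPM with 30000 fibers, and none of their defining members Col1a1 (295 ± 109, 529 ± 45.1 and 885 ± 127 CPM in the order of dose) and Dcn (23.6 ± 8.97, 65.6 ± 7.18 and 229.6 ± 27.7 CPM) was at 0. Most of the fibroblast sums was Fn1, at 9131 ± 1453, 13211 ± 620 and 11215 ± 1201 CPM in the order of dose. All 12 of the 12 fibroblast genes tested were higher at both doses. From 12000 to 30000 fibers 7 of them were higher and 0 lower, with a median log2 fold change of 0.77. Of the 12 epithelial genes 3 were higher and 6 lower with 12000 fibers and 1 was higher and 10 lower with 30000 fibers. Markers of epithelial cell types also differed between groups, in both directions. Of 8 alveolar markers tested, 1 was higher and 1 lower with 12000 fibers, and 4 were higher and 2 lower with 30000 fibers. They summed to 2404 to 3621 CPM in controls, 3002 to 5167 CPM with 12000 fibers and 3608 to 5221 CPM with 30000 fibers. All 7 of 7 basal cell markers were lower at both doses, with sums of 2108 to 3396 CPM in controls, 472 to 647 CPM with 12000 fibers and 252 to 324 CPM with 30000 fibers. The basal keratin gene Krt5 averaged 702 ± 197, 52.6 ± 20.0 and 18.3 ± 7.59 CPM in the order of dose. Of 9 secretory and ciliated markers 8 were lower at both doses, with sums of 465 to 990 CPM in controls, 81.6 to 110.6 CPM with 12000 fibers and 228 to 317 CPM with 30000 fibers. The exception, Scgb1a1, was not called with 12000 fibers and was higher with 30000 fibers. It averaged 11.5 ± 5.10, 19.9 ± 6.94 and 210 ± 25.0 CPM in the order of dose. Of 7 immune markers, 4 had values and summed to 72.8 to 178 CPM in controls, 161 to 285 CPM with 12000 fibers and 293 to 462 CPM with 30000 fibers. Most of these sums was Lyz2, at 108 ± 50.0, 192 ± 51.8 and 345 ± 68.9 CPM in the order of dose. Of the 4 genes, 1 was called higher with 12000 fibers and 3 with 30000 fibers, and 0 were lower. Ptprc, Cd3e and Itgam had no transcript among the listed counts, so no level can be given for them. The 3 of 6 endothelial and mesothelial markers with values summed to 990 to 1212 CPM in controls, 665 to 819 CPM with 12000 fibers and 389 to 607 CPM with 30000 fibers. Nearly all of these sums was Msln, at 1106 ± 105, 751 ± 65.1 and 463 ± 96.1 CPM in the order of dose. Pecam1 averaged 1.37, 0.867 and 1.88 CPM and Kdr 1.94, 2.62 and 0.903 CPM. In bulk RNA a smaller number of cells of a type and less RNA per cell cannot be told apart, and this holds for every level below.

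The promoters of 4 genes are shown because these genes carry the main results below: Fos and Jun, which were lower at both doses, Junb, which was called lower at the higher dose and not at the lower one, and Dusp1, for which no change was called. Each sequence is the 250 bases before the RefSeq transcription start (build GRCm38.p6, the assembly also called mm10), written 5′ to 3′ on the gene's own strand, with capitals marking the motif matches named afterwards. The windows are chr12:85473640-85473889 (plus strand) for Fos, chr4:95052223-95052472 (minus strand) for Jun, chr8:84978749-84978998 (minus strand) for Junb and chr17:26508473-26508722 (minus strand) for Dusp1.
Fos: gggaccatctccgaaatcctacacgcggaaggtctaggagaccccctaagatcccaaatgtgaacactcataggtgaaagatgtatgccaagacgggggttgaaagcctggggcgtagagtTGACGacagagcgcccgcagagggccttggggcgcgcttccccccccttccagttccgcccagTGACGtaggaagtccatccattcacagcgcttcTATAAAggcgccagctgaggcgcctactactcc
Jun: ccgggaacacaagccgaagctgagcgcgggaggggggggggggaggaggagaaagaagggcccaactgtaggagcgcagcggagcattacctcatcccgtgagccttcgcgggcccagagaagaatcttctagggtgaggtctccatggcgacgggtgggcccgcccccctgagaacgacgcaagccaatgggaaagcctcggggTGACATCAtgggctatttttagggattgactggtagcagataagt
Junb: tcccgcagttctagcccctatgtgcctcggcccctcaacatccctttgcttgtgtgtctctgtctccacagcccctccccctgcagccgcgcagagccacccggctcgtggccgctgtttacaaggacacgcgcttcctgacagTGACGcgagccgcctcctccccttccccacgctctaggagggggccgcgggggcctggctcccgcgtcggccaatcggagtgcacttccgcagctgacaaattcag
Dusp1: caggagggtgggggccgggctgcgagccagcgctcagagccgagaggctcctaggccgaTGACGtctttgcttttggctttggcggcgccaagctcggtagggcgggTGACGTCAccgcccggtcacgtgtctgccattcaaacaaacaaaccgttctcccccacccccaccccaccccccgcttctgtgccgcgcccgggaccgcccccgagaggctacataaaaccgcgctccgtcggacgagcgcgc

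The motifs were searched on both strands in the promoters of 8 of the 10 genes. The CREB/ATF site (CRE, TGACGTCA) stood once, in Dusp1 at -143 to -136 from the start, and 1.55% of all 32851 RefSeq mouse promoters of this length hold it. Its shorter core TGACG, which every CRE also contains, stood in 4 of 8 promoters, against 17.8% of all promoters. In Fos the core lay at -129 to -125 and at -66 to -62, in Junb at -106 to -102, in Atf3 at -7 to -3 on the opposite strand, and in Dusp1 at -191 to -187 and within the CRE. The AP-1 site TGACTCA was found in 0 of 8 windows (4.46% of all promoters), while the related site TGACATCA stood in Jun at -45 to -38 (2.93%). Fos had a TATA box (TATAAA, 12.4%) at -33 to -28, and Zfp36 a CArG box, the sequence that SRF binds (1.47%), at -58 to -49. These are matches of letters only.

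Per kilobase of transcript, Jun was the most abundant of the 10 genes in control epithelium and Egr1 the least. Jun stood at 255 ± 51.9 CPM per kb and Ier3 at 194 ± 13.7, and their libraries overlapped; Junb followed at 148 ± 5.59, below every Ier3 library (SD, n = 4 here and throughout). Atf3 (108 ± 28.4), Dusp1 (102 ± 12.8) and Fos (96.7 ± 32.98 CPM per kb) overlapped each other. Ier2 (48.1 ± 4.06), Zfp36 (39.2 ± 7.13) and Fosl2 (38.3 ± 2.91) came next. Zfp36 overlapped both of the others, but every Ier2 library lay above every Fosl2 library. Egr1 at 24.4 ± 3.35 CPM per kb lay below all of them. Even Egr1 exceeded 80.8% of the tested genes in mean level and Jun exceeded 99.2%, so all 10 were well detected after 7 days of culture. With 12000 fibers Ier3 (224 ± 14.2 CPM per kb) stood above Jun (172 ± 17.7 CPM per kb) with no overlap, and with 30000 fibers the same 2 genes stood at 250.0 ± 23.6 and 148 ± 15.2 CPM per kb. At that dose every Egr1 library (42.6 ± 7.94 CPM per kb) lay above every Fosl2 library (26.9 ± 1.98 CPM per kb), the reverse of the controls.

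**Figure D1:**
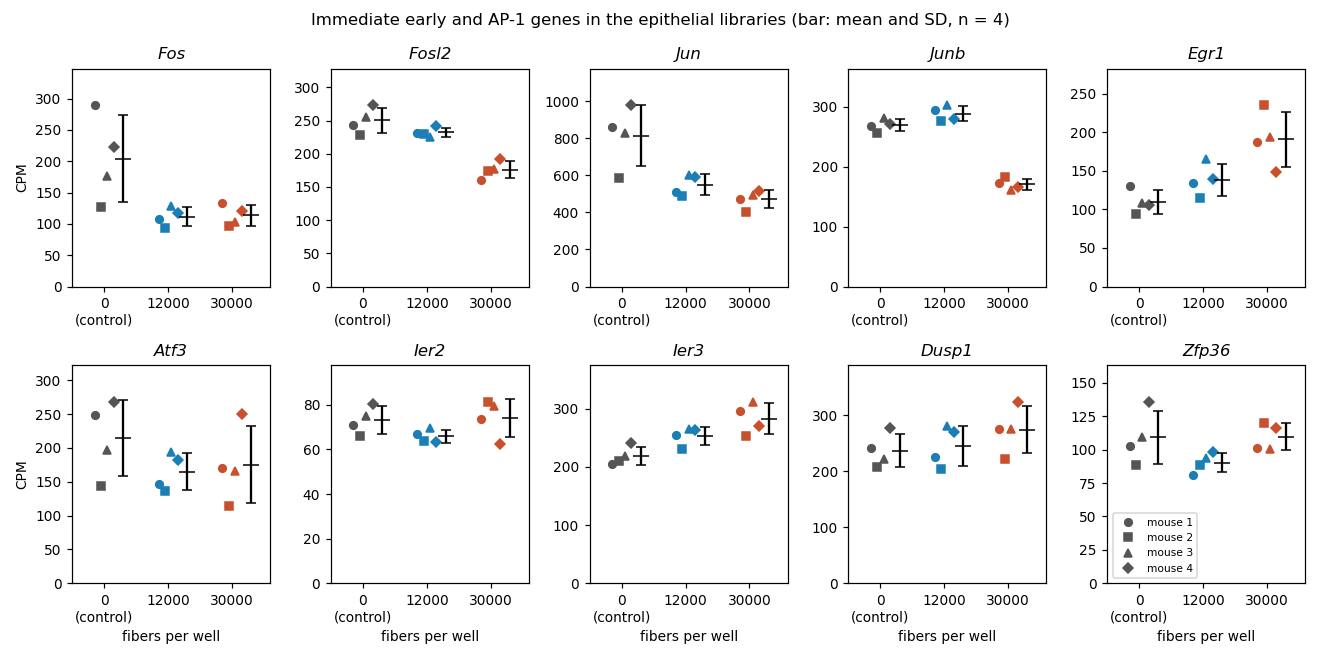
CPM of each of the 10 genes (vertical axes from 0) against fibers per well; symbols are the libraries of mice 1 to 4, and the bar beside them gives the mean and SD (n = 4). Fos and Jun lie lower in most fiber libraries than in controls, Fosl2 and Junb are lowest with 30000 fibers, and Egr1 and Ier3 lie highest with 30000 fibers.

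With 12000 fibers Fos and Jun, the genes of the archetypal AP-1 dimer, were lower than in controls, Ier3 was slightly higher, and no call was made for the other 7 genes. Thus 3 of 10 genes changed by edgeR's quasi-likelihood test (Benjamini-Hochberg adjusted p under 0.05 over all genes), against 38.0% of the 13759 genes tested; 1 was higher, against 18.7%, and 2 were lower, against 19.3%. Basal, secretory and ciliated markers were lower in the same libraries (7 of 7 and 8 of 9), and of 8 alveolar markers 1 was higher and 1 lower. The part of these marker differences in the changes of the 10 genes was not tested. For 0 of 10 did all fiber libraries lie above or all lie below the controls, against 17.6% of all genes above and 18.7% below. The share of calls is close to that of all genes. The median log2 fold change over control was -0.13 for the 10 genes and -0.00255 for all genes. With the mean level of the fibroblast identity genes as a covariate, 0 of the 10 passed, against 871 of the 13759 genes. The part of fibroblast RNA in these changes was not tested beyond that fit, in which this level and the fiber groups move together: the level lay at 5.62 to 7.04 (mean log2 CPM) in controls, 7.31 to 7.61 with 12000 fibers and 8.11 to 8.46 with 30000 fibers.

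With 30000 fibers the 3 AP-1 genes Fosl2, Jun and Junb fell below every control library, Fos was also lower, and Egr1 and Ier3 were above every control library. These 6 of 10 genes passed the test, against 65.6% of all 13759 genes; 2 were higher (32.2% of all genes) and 4 were lower (33.4%). Without overlap between the groups, 2 genes were higher and 3 lower, against 28.7% and 29.4% of all genes. The number changed is thus again near the background, since most genes moved at this dose. The medians were -0.14 for the 10 genes and -0.0262 for all genes. With the fibroblast level as a covariate 2 of the 10 passed, Fosl2 and Junb, both lower. The share of all genes that passed in that fit is not given here, so these 2 calls are not read against a background. Here too basal markers (7 of 7), secretory and ciliated markers (8 of 9) and epithelial identity genes (10 of 12) were lower. Scgb1a1 and 4 of 8 alveolar markers were higher, and 2 alveolar markers were lower. The part of these marker differences in the changes of the 10 genes was not tested.

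**Figure D2:**
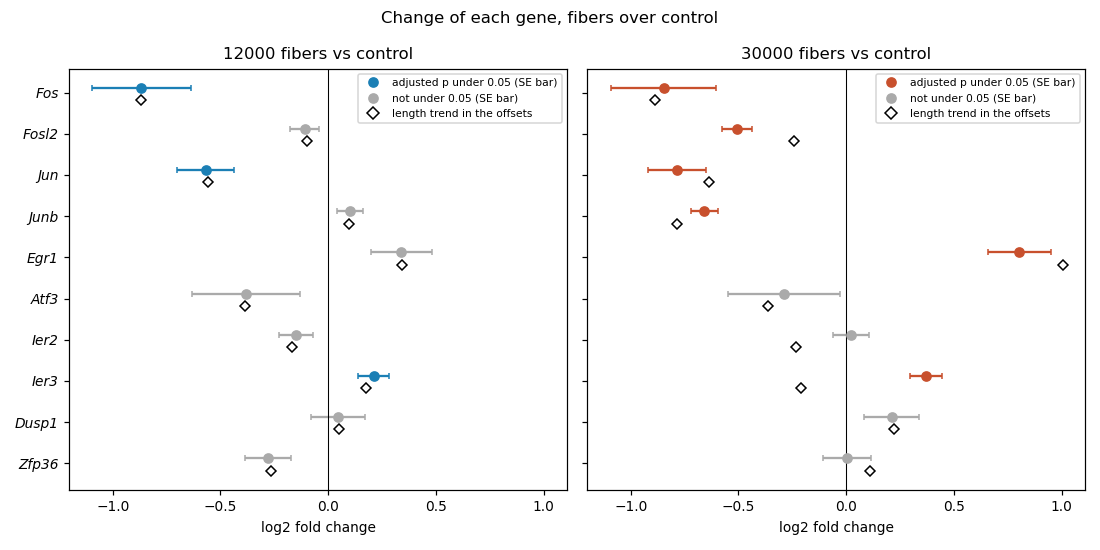
Log2 fold change over control for each gene, with 12000 fibers on the left and 30000 fibers on the right; bars are standard errors, coloured points passed the test and grey ones did not, and open diamonds give the value when each library's trend with transcript length enters the fit. At 30000 fibers Ier3 lies on opposite sides of 0 in the 2 fits (0.37 and -0.21), whereas Junb and Egr1 lie farther from 0 with the trend.

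Fos encodes the inducible partner of Jun and has a classically short-lived mRNA. It was at 290.0, 127, 176 and 223 CPM in the controls of mice 1 to 4, at 108, 92.9, 128 and 118 CPM with 12000 fibers and at 133, 96.7, 103 and 121 CPM with 30000 fibers. Mouse 2 gave the lowest value in each group, and the control of mouse 2 alone overlapped with the fiber libraries. The log2 fold change over control was -0.87 ± 0.23 (SE) with 12000 fibers (edgeR adjusted p = 0.0135) and -0.85 ± 0.24 with 30000 fibers (adjusted p = 0.0107), lower in 4 of 4 mice at both doses. Between 30000 and 12000 fibers no difference was called (0.02 ± 0.25, adjusted p = 0.953). Controls varied most: the coefficient of variation of Fos was 34.1% in controls, 13.4% with 12000 fibers and 14.6% with 30000 fibers, against medians over all genes of 10.9%, 8.87% and 12.8%. With the fibroblast level as covariate the value was -0.28 at 12000 fibers (adjusted p = 0.766) and 0.11 at 30000 fibers (adjusted p = 0.913).

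Jun, the core subunit of AP-1, which also stimulates its own promoter, stood at 859, 585, 829 and 980.2 CPM in controls, 510.4, 489.9, 602 and 592 CPM with 12000 fibers and 472, 405, 497 and 516 CPM with 30000 fibers. Every library with 30000 fibers lay below every control, and at 12000 fibers only the control of mouse 2 reached into the range. Jun fell by 0.57 ± 0.13 on the log2 scale with 12000 fibers (adjusted p = 0.00425) and by 0.78 ± 0.14 with 30000 fibers (adjusted p = 0.000170). The step between the doses, -0.22 ± 0.14, passed when mice were blocked (adjusted p = 0.194 without and 0.0203 with the block). The fibroblast covariate left the size at -0.50 and -0.67 and removed both calls (adjusted p = 0.364 and 0.243). Its antisense gene Junos overlaps Jun by 232 bases and averaged 22.1 counts per library, against 4431 for Jun.

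Junb, a Jun family member that often restrains Jun, and Fosl2, a Fos family member with a slower and longer induction, were lower with 30000 fibers than in either other group. Junb was at 267, 256, 280.4 and 271 CPM in controls, 295, 276, 303 and 280.0 CPM with 12000 fibers and 172, 182, 160.1 and 166 CPM with 30000 fibers. Fosl2 was at 244, 229, 256 and 274 CPM in controls, 231, 229.7, 225 and 242 CPM with 12000 fibers and 161, 174, 177 and 192 CPM with 30000 fibers. In both genes the highest dose stood apart from the other groups, while the lower dose overlapped the controls. Junb changed by -0.66 ± 0.06 with 30000 fibers over control (adjusted p = 2.01e-08) and by -0.76 ± 0.06 over 12000 fibers (adjusted p = 3.66e-09), and its difference at 12000 fibers over control was 0.10 ± 0.06 (adjusted p = 0.190). For Fosl2 the values were -0.51 ± 0.07 with 30000 fibers over control (adjusted p = 2.52e-06), -0.40 ± 0.07 over 12000 fibers (adjusted p = 6.67e-05) and -0.11 ± 0.07 at 12000 fibers over control (adjusted p = 0.211). With the trend of transcript length in the fit Fosl2, the longest transcript of the set, was at -0.24 with 30000 fibers over control (adjusted p = 0.00272) and at -0.14 over 12000 fibers, where the call was lost (adjusted p = 0.0670). With counts summed over its transcripts the values were -0.31 and -0.23, both still called. Junb overlaps Prdx2 on the opposite strand by 173 bases. Prdx2 was higher with 30000 fibers (log2 fold change 1.18), the reverse of Junb, and whether the counting used strand is not given in the sources.

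Egr1, a zinc finger factor that SRF and ELK proteins switch on, was higher with 30000 fibers, opposite to Fos, Fosl2, Jun and Junb. It stood at 129.8, 93.7, 109 and 105 CPM in controls, 134, 115, 165 and 139 CPM with 12000 fibers and 187, 235, 193 and 148 CPM with 30000 fibers. All libraries with 30000 fibers were above the highest control, and mouse 2, lowest in the other groups, was highest at that dose. The log2 fold change was 0.80 ± 0.15 with 30000 fibers over control (adjusted p = 0.000330) and 0.47 ± 0.14 over 12000 fibers (adjusted p = 0.0156). When the library of mouse 2 with 30000 fibers was left out, the difference between the doses was 0.35 with an adjusted p of 0.0502. At 12000 fibers it was 0.34 ± 0.14, higher in 4 of 4 mice but not called (adjusted p = 0.0771); when the 30000-fiber libraries were left out of the fit it passed (adjusted p = 0.0407). The fibroblast covariate left the size at 0.89 over control and 0.50 over 12000 fibers and removed both calls (adjusted p = 0.156 and 0.0913).

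Atf3, a stress-induced factor that dimerizes with Jun proteins, varied widely among mice, with coefficients of variation of 26.3%, 16.6% and 32.2% in the order of dose. It was at 249, 143, 196 and 268 CPM in controls, 147, 137, 193 and 182 CPM with 12000 fibers and 171, 114, 166 and 251 CPM with 30000 fibers. Mouse 2 was lowest in every group and the groups overlapped throughout. The differences over control, -0.38 ± 0.25 with 12000 fibers (adjusted p = 0.274) and -0.29 ± 0.26 with 30000 fibers (adjusted p = 0.357), did not exceed the spread between mice although both were negative in 4 of 4 mice.

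Ier3, a small stress-inducible protein linked to cell survival and ERK signalling, was at 206, 211, 218 and 241 CPM in controls, 254, 231, 266 and 263 CPM with 12000 fibers and 296, 253, 312 and 269.9 CPM with 30000 fibers. Its 30000-fiber libraries lay above all controls and its 12000-fiber libraries overlapped with a single control. The log2 fold change was 0.37 ± 0.08 with 30000 fibers (adjusted p = 0.000241) and 0.21 ± 0.07 with 12000 fibers (adjusted p = 0.0290). The call at 12000 fibers was lost in 5 of 12 fits that left out a library: control mouse 1 or 2, or 12000-fiber mouse 1, 3 or 4 (adjusted p at most 0.0836). Ier3 has the shortest transcript of the set, 1131 bases, and transcripts of 57 to 1803 bases had a median log2 fold change of 0.53 with 30000 fibers, against -0.23 for those of 5152 bases and more. At 12000 fibers the medians of the 5 length classes lay between -0.02 and 0.03. With that trend in the fit Ier3 turned to -0.21 at 30000 fibers (adjusted p = 0.0302), so its direction at this dose rests on how length is treated. Ier2, a nuclear protein of the early response encoded by a single exon of 1522 bases, averaged 73.2 ± 6.17, 65.9 ± 2.95 and 74.3 ± 8.54 CPM in the order of dose and was not called (-0.15 ± 0.08, adjusted p = 0.142, and 0.02 ± 0.08, adjusted p = 0.823); with the length trend it was -0.23 at 30000 fibers (adjusted p = 0.0268).

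Neither of the genes that end the response was called against control. Dusp1 was at 241, 208, 222 and 276 CPM in controls, 225, 204, 281 and 269.7 CPM with 12000 fibers and 275, 221, 276 and 324 CPM with 30000 fibers. Its groups overlapped, and the differences over control were 0.05 ± 0.12 with 12000 fibers (adjusted p = 0.806) and 0.21 ± 0.13 with 30000 fibers (adjusted p = 0.161). The difference at 30000 fibers was positive in 4 of 4 mice and passed when mice were blocked (0.20, adjusted p = 0.0172), with counts summed over the gene's transcripts (0.37, adjusted p = 0.0165) and when mouse 2 with 30000 fibers was left out (adjusted p = 0.0411). The transcript of Dusp1 with the highest count is annotated as a retained intron. Zfp36, which destabilizes AU-rich mRNAs, stood at 103, 88.4, 109.7 and 136 CPM in controls, 81.1, 88.2, 93.6 and 97.9 CPM with 12000 fibers and 101, 120.3, 101 and 116 CPM with 30000 fibers. By the transcript followed here, Zfp36 was lowest at the middle dose. The step from 12000 to 30000 fibers was 0.28 ± 0.11 (adjusted p = 0.0451, no overlap). That call was lost in 7 of 12 fits without a library and with summed transcripts (0.16, adjusted p = 0.259). With 12000 fibers Zfp36 differed from controls by -0.28 ± 0.11 (adjusted p = 0.0502, and 0.0168 when mice were blocked). At 30000 fibers over control it was 0.00 ± 0.11 (adjusted p = 0.973). The second Zfp36 transcript was at 99.2 ± 1.01% of the followed one in controls and 99.3 ± 1.05% with 12000 fibers. With 30000 fibers it was at 65.8 ± 3.47%. The order of the groups thus depends on the transcript followed.

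Between the doses, 4 of 10 genes passed the test, against 55.4% of all genes: Fosl2 and Junb were lower with 30000 than with 12000 fibers, and Egr1 and Zfp36 were higher. Higher and lower calls over all genes were 28.3% and 27.1%. Without overlap, Zfp36 was above and Fosl2 and Junb were below, against 26.7% and 25.6% of all genes. The Zfp36 call was lost when counts were summed over its transcripts. The doses thus differed in which AP-1 subunits were low, Fos and Jun at both and Fosl2 and Junb at the higher one, and the step between the doses was called for Junb under every alternative tried and for Fosl2 under all but the length trend (-0.14, adjusted p = 0.0670).

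Within a group, the same mice tended to be high or low for many of the 10 genes. The control of mouse 2 was the lowest of the 4 controls for 9 of the 10 genes and that of mouse 4 the highest for 7. With 12000 fibers mouse 2 was lowest for 7 and mouse 3 highest for 8. With 30000 fibers mouse 2 was lowest for 5 and highest for 4. Summed over the 10 genes the level was 2659, 2007, 2472 and 2854 CPM in controls, 2052, 1926, 2326.5 and 2247 CPM with 12000 fibers and 2042, 1882, 2065 and 2166 CPM with 30000 fibers. Mouse 2 gave the lowest sum in every group. Its control library was the deepest control, with 28232472 counts, and had a mitochondrial share of 6.87%, inside the range of the other controls.

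Over the 12 libraries the genes whose log2 CPM followed Fos most closely were Znrf2 (Pearson r = 0.931), Plekha5 (r = 0.924) and Aasdh (r = 0.924), the top 3 of the 10107 genes whose log2 CPM averaged 3 or more. The libraries share their dose groups and depths, so the coefficients describe the pattern only. Each of the 3 was lower at both doses by the test, with log2 fold changes of -0.50, -0.30 and -0.34 with 12000 fibers and -0.51, -0.42 and -0.48 with 30000 fibers.

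For most further transcripts of these genes, the count relative to the highest transcript differed between the 30000-fiber libraries and the controls. The table lists 13 further transcripts for 6 of the 10 genes, and each count was expressed as a percentage of the gene's highest transcript. With 30000 fibers 8 of the 13 shares lay below and 4 above all controls, against 52.1% below and 15.3% above for 31261 such transcripts of all genes; with 12000 fibers 1 of 13 did, against 2.44% and 4.52%. The Fos transcript ENSMUST00000140525, which ends 1088 bases before the 3′ end of the gene, was at 22.8 ± 4.33% with 30000 fibers and 41.0 ± 1.71% in controls, and the Dusp1 transcript ENSMUST00000146077, ending 926 bases before it, was at 7.84 ± 0.852% with 30000 fibers and 25.6 ± 1.65% in controls. Of the 7 transcripts ending over 500 bases before the 3′ end, 6 were lower and 1 was higher (62.0% and 8.31% of all such transcripts). The exception was Fosl2 ENSMUST00000202169, at 35.2 ± 1.93% with 30000 fibers and 26.8 ± 1.71% in controls. Both this transcript and Dusp1 ENSMUST00000146077 are annotated as retained introns. Of the 6 transcripts ending within 500 bases of the 3′ end, 2 were lower and 3 higher (34.4% and 27.8% of all such transcripts). The 3 higher ones were protein-coding Dusp1 transcripts, with means of 93.5 to 96.9% with 30000 fibers and 84.8 to 90.6% in controls. The second Egr1 transcript, which begins downstream of the start of the highest one and ends 28 bases before the 3′ end, was at 75.9 ± 3.14% with 30000 fibers and 97.8 ± 0.483% in controls, and that of Zfp36, ending 7 bases before it, at 65.8 ± 3.47% with 30000 fibers and 99.2 ± 1.01% in controls. Whether these shares go with position in the mRNA or with intron content was not tested. How much of the gene-level changes at 30000 fibers goes with this shift, with the depth or with the mitochondrial share was not tested beyond the fit with the length trend.

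**Figure D3:**
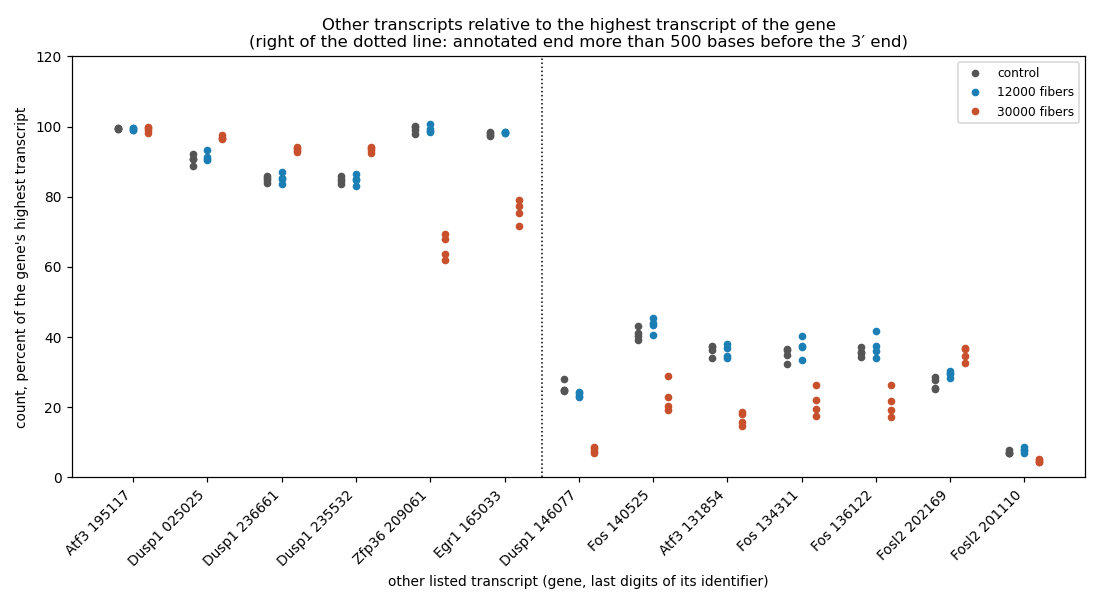
Count of each further listed transcript as a percentage of the highest transcript of its gene (vertical axis), one point per library, coloured by fibers per well; transcripts right of the dotted line end more than 500 bases before the 3′ end. The 30000-fiber points stand below the controls for 8 of the 13 transcripts and above them for 4, while the 12000-fiber points overlap the controls for all but Dusp1 146077.

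The lists that follow are set beside the shares of all tested genes, 18.7% higher and 19.3% lower with 12000 fibers and 32.2% higher and 33.4% lower with 30000 fibers. They were chosen with earlier results of these data known, so a share above that of all genes is a description only. The remaining AP-1 and small Maf partners went in both directions, at shares near or below these. Of 9 tested, 2 were higher and 0 lower with 12000 fibers (median log2 fold change -0.00) and 2 were higher and 2 lower with 30000 fibers (median 0.06). Fosl1, the Fos family member typical of migrating and wound-edge epithelium, was at 26.9 ± 2.68 CPM in controls, 41.4 ± 3.74 CPM with 12000 fibers and 124 ± 26.2 CPM with 30000 fibers. Its log2 fold change over control was 0.62 ± 0.12 with 12000 fibers (adjusted p = 0.000907) and 2.20 ± 0.12 with 30000 fibers (adjusted p = 1.41e-10), the reverse of Fos and Fosl2. Maff, a small Maf protein, was higher with 12000 fibers (0.37), whereas Mafk and Mafg were lower with 30000 fibers (-0.93 and -0.46).

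Among 15 other immediate early transcription factors, 6 were higher and 3 lower with 12000 fibers (median 0.18), and 6 were higher and 4 lower with 30000 fibers (median 0.12). The counts with 30000 fibers are near the 32.2% and 33.4% of all genes. Egr3, a relative of Egr1, averaged 4.39 ± 1.17 CPM in controls, 9.59 ± 1.46 CPM with 12000 fibers and 24.45 ± 6.34 CPM with 30000 fibers, a log2 fold change over control of 1.14 ± 0.20 (adjusted p = 0.000183) and 2.47 ± 0.21 (adjusted p = 3.03e-09). Klf4, a regulator of epithelial differentiation, was at 47.5 ± 5.27 CPM with 12000 fibers, against 101 ± 23.4 CPM in controls (-1.09 ± 0.15, adjusted p = 8.44e-05), and at 95.2 ± 10.6 CPM with 30000 fibers (-0.09 ± 0.15, adjusted p = 0.627). Myc, which promotes growth, was higher at both doses (0.47 and 0.57), while Cebpb and Ets2 were lower with 30000 fibers (-0.57 and -0.35).

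The 20 other immediate early effectors gave 7 higher and 1 lower with 12000 fibers (median 0.09) and 5 higher and 5 lower with 30000 fibers (median -0.02), below the 32.2% and 33.4% of all genes at the higher dose. Phlda1 was higher at both doses, at 190 ± 2.44 CPM with 12000 fibers and 416 ± 33.2 CPM with 30000 fibers, against 137 ± 8.69 CPM in controls. Ccn2, a matricellular protein and known YAP target, was higher with 12000 fibers (0.70) and slightly lower with 30000 fibers (-0.24). Sgk1, a kinase that controls sodium channels, was higher with 30000 fibers (1.03), and Sik1, a kinase that restrains CREB signalling, was lower (-1.01).

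Of the 15 relatives of Dusp1 and Zfp36 in MAP kinase feedback and mRNA decay, 6 were higher and 1 lower with 12000 fibers (median 0.20), and 6 were higher and 4 lower with 30000 fibers (median 0.08), near the 32.2% and 33.4% of all genes at the higher dose. Dusp10, a phosphatase of p38 and JNK, was at 42.7 ± 1.94 CPM with 12000 fibers and 54.3 ± 4.47 CPM with 30000 fibers, against 24.0 ± 5.45 CPM in controls (log2 fold changes 0.83 and 1.18). Dusp4 and Dusp16 were higher with 12000 fibers (0.59 and 0.41), and Dusp16 was lower with 30000 fibers (-0.39). Zfp36l2, the paralog of Zfp36, was higher with 30000 fibers (0.82), at which dose Zfp36 itself stood at 0.00. The kinases and the SRF module upstream, 21 genes, gave 3 higher and 3 lower with 12000 fibers (median -0.01) and 9 higher and 8 lower with 30000 fibers (median 0.14). All genes gave 18.7% and 19.3% with 12000 fibers and 32.2% and 33.4% with 30000 fibers. There the ribosomal S6 kinase Rps6ka1 was lower at both doses (-0.51 and -1.14), while Mapk3 (ERK1) and Map2k3 were higher with 30000 fibers (0.44 and 0.64).

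Of 11 textbook AP-1 target genes 6 rose and 0 fell with 12000 fibers (median 0.45), against 18.7% and 19.3% of all genes. With 30000 fibers 8 rose and 1 fell (median 0.86), against 32.2% and 33.4% of all genes. Because this list was chosen with earlier results of these data known, its shares cannot be read as an excess over all genes. Spp1, which encodes osteopontin, averaged 2552 ± 320 CPM with 12000 fibers and 5159 ± 272 CPM with 30000 fibers, against 1128 ± 407 CPM in controls. Plaur, the urokinase receptor, was higher at both doses (0.60 and 0.71), the matrix protease Mmp3 rose to 3.00 ± 0.487 and 10.96 ± 2.27 CPM in the order of dose, against 1.098 ± 0.565 CPM in controls, and Timp1 was higher with 30000 fibers (1.75). Several of these genes are also expressed by fibroblasts, whose identity genes were higher in the same libraries. Those summed to 15018 to 16503 CPM with 12000 fibers, 14162 to 17263 CPM with 30000 fibers and 8225 to 12937 CPM in controls, mostly Fn1. From 12000 to 30000 fibers 7 of 12 fibroblast genes were higher and 0 lower. Spp1, Timp1 and Mmp3 have transcripts in the class of 57 to 1803 bases, with a median log2 fold change of 0.53 with 30000 fibers. The parts of fibroblast RNA and of transcript length in the rise of the AP-1 targets were not tested.

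Heat shock genes, which dissociation can also induce, gave 3 higher and 3 lower of 10 with 12000 fibers (median 0.06) and 6 higher and 1 lower with 30000 fibers (median 0.49). All genes gave 18.7% and 19.3% at the lower dose and 32.2% and 33.4% at the higher one. The inducible chaperone genes Hspa1a and Hspa1b, near-identical copies whose reads the counting could split, were lower with 12000 fibers, at 6.70 ± 1.43 and 12.5 ± 2.90 CPM against 19.4 ± 5.40 and 37.2 ± 7.97 CPM in controls, as was their cochaperone Dnajb1 (-0.41). With 30000 fibers Hspa1a stood at 11.7 ± 1.23 CPM and Hspa1b at 32.98 ± 2.74 CPM. The difference from control was called lower for Hspa1a (-0.73, adjusted p = 0.00337) and not called for Hspa1b (-0.17, adjusted p = 0.372). The genes that rose at that dose included Hspa8 (1.69), the mitochondrial cochaperone Hspe1 (3.77), Hspb1 (1.56) and Hsp90aa1 (0.74). Hspe1 and Hspb1 have transcripts in the class of 57 to 1803 bases, whose median log2 fold change at that dose was 0.53. The part of transcript length in these rises was not tested.

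**Figure D4:**
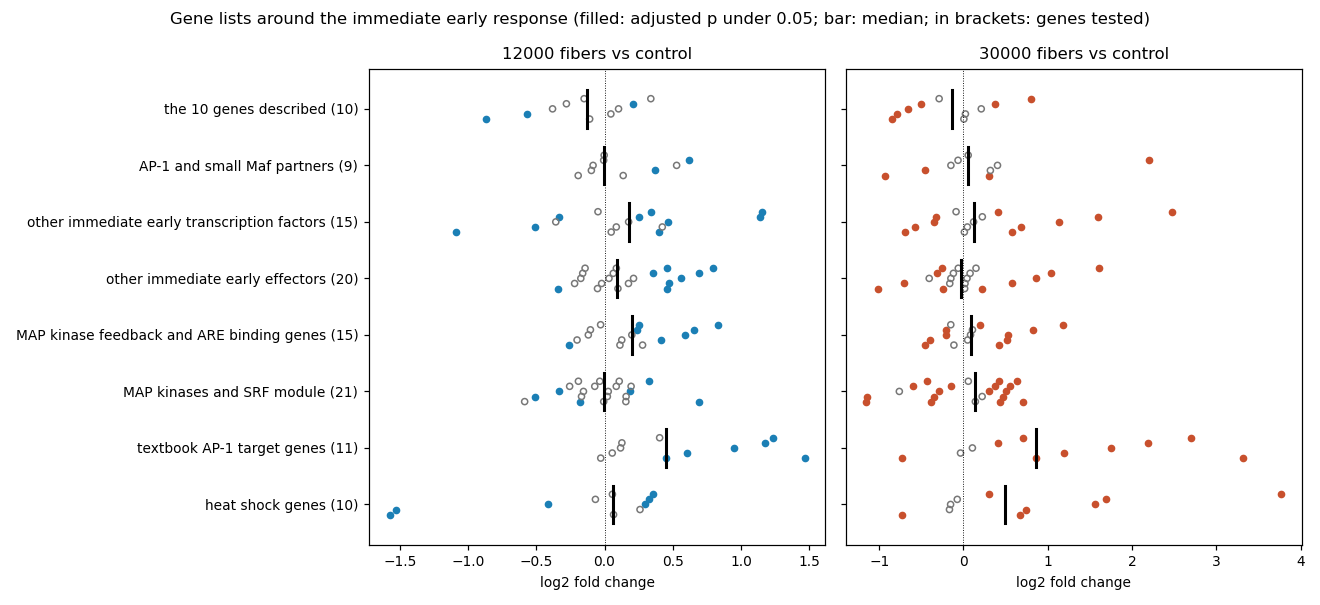
Log2 fold change over control of every tested gene of 8 lists, with 12000 fibers on the left and 30000 fibers on the right (the horizontal scales differ); filled points have an adjusted p under 0.05 and black bars are list medians. The medians of the 10 genes described lie at -0.13 and -0.14, and those of the textbook AP-1 targets at 0.45 and 0.86. The lists were chosen with earlier results of these data known.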

How the data were processed

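Deposited values were raw counts per Ensembl transcript, whole numbers that the authors had neither normalized nor pooled. Tools named in the submitters' processing notes are HISAT2 2.1.0, cutadapt 1.12, FastQC and bcl2fastq, with build mm10. Which program counted the reads, with or without strand and barcodes, is not given in the sources. Of the transcript identifiers, 70518 of 71081 matched GENCODE M21 (GRCm38). The fibroblast columns ran on for 36733 rows below the last identifier and were unrelated to the epithelial columns row by row (Spearman rho = 0.0467), so the 12 fibroblast libraries were not used.

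Samples were grouped by their titles. The 12 epithelial libraries entered a single edgeR 4.0.16 fit (R 4.3.3): filterByExpr, TMM, robust quasi-likelihood F test, 9 residual degrees of freedom, Benjamini-Hochberg adjustment over the 13759 genes tested, threshold 0.05. Standard errors come from the F statistic. The test was checked on simulated data in which 100 genes changed 1.5-fold and 100 changed 2-fold. It recovered 70% and 91% of them for 12000 fibers over control and 59% and 85% for 30000 fibers over control. There were 6 false calls in each. Far fewer genes changed there than were called in the data, so the check does not cover that setting. CPM use TMM-scaled totals of the representative transcripts, which summed to 2799765 to 10583357 per library; intervals of such counts cover counting error only.

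Same-numbered libraries come from the same mouse, which pairs them; deviations of same-mouse libraries from their group means correlated at -0.0192 to 0.156. Alternatives were DESeq2 size factors, DESeq2 1.42.0, no filter, counts summed over transcripts, a length trend in the offsets, the mouse as a block, the fibroblast level as a covariate, the 2 groups alone, and leaving out each library. Named genes were all 10 members, up to 4 called genes per list and dose by smallest p, the 3 genes most like Fos, and 6 markers. The members and lists were chosen with earlier results of these data known.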

Additional observations from a re-analysis of the deposited data

How the results depend on the processing

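When the fibroblast level entered as covariate, the calls among the 10 genes went to 0 of 3 with 12000 fibers, 2 of 6 with 30000 fibers and 2 of 4 between the doses; the cause was not tested. All other alternatives kept each count within 1.5 times. Beyond the main fit, counts over all genes are given only for the covariate with 12000 fibers, so the others are not read against a background. The replicate block (mouse) gave 4, 7 and 5 calls and changed no calls other than those given for Zfp36, Dusp1 and Jun. Without 1 library at a time the counts ran from 2 to 4, 6 to 7 and 3 to 5; the calls of Fos and Jun with 12000 fibers and all 6 calls with 30000 fibers were kept in each of those 12 fits. The direction at 30000 fibers over control reversed with the fibroblast covariate for Fos (0.11), Atf3 (0.30), Ier2 (-0.19) and Zfp36 (-0.14), with the length trend for Ier2 (-0.23) and Ier3 (-0.21), and with summed transcripts for Zfp36 (-0.12). Between the doses it reversed with summed transcripts for Fos (-0.25) and with the length trend for Fos (-0.018), Ier2 (-0.066) and Ier3 (-0.39). Ier3 is not a value near 0 there: over the alternatives it ran from -0.39 to 0.30, with adjusted p as low as 0.000545. Summed transcripts also added 3 calls between the doses and lost 1. Leaving out 1 library also turned values near 0: Dusp1 with 12000 fibers ran from -0.023 to 0.129, Ier2 with 30000 fibers from -0.026 to 0.1002, Zfp36 with 30000 fibers from -0.088 to 0.127, and between the doses Fos from -0.063 to 0.088 and Atf3 from -0.13 to 0.25. With 12000 fibers Ier3 missed the threshold with summed transcripts (adjusted p = 0.0531) and with the length trend (0.0884), and Egr1 passed it in DESeq2 (0.0469). Between the doses the Fosl2 call was lost with the length trend (-0.14, adjusted p = 0.0670). Depth is lowest with 30000 fibers, where Ier2 had as few as 187 counts in a library.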
